A study of Homo sapiens with 4 samples.

Results

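Transcripts of 9 complement genes were examined in SAS, a cell line from a human squamous carcinoma of the tongue: CFB, C3, C1R, C1S, C2, CFI, CD46, CD55 and CD59. They are the rows of the deposited table that carry these names, 9 of 35767 rows. They were selected on their counts in these same libraries, with the difference between the 2 groups already known. That difference is therefore given for them as a description, and no p-value is printed for a member. The first group, siControl, consisted of 2 libraries of SAS cells labelled wild type. The second group, siNAT10, consisted of 2 libraries labelled as a knockdown of NAT10, an acetyltransferase that modifies cytidines in RNA. The genotype label of siNAT10 replicate 2 names NAT11 in place of NAT10. The labels call the replicates biological but name no separate cultures, time or siRNA sequence, so the spread that the p-values measure may be technical.

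Complement is a cascade of plasma proteins that marks surfaces for uptake and can open pores in membranes. C1R and C1S are the proteases that start the classical pathway, and C2 supplies the protease of its C3 convertase. CFB does the same for the alternative pathway, and C3 is the protein that both convertases cleave. CFI cuts the activated fragments of C3 and C4, with CD46 as a cofactor on the cell surface, CD55 takes convertases apart, and CD59 blocks assembly of the membrane pore. Most circulating complement comes from the liver, but epithelial cells also transcribe several of these genes, and interferons and inflammatory cytokines are known inducers of CFB.

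Under the siNAT10 label no loss of NAT10 mRNA was detectable. NAT10 (chromosome 11, 34105602 to 34147670, GRCh38) was at 240.4 and 231 CPM (counts scaled for library size) in siControl replicates 1 and 2 against 253 and 248 CPM under the siNAT10 label. The difference was 0.09 ± 0.06 on the log2 scale (SE, n = 2 libraries a group, edgeR adjusted p = 0.293), with a 95% interval from -0.046 to 0.22, and it was -0.024 with libraries scaled by their totals alone. A direction given from here on is therefore that of libraries carrying the siNAT10 label, not of cells shown to have lost NAT10 mRNA. Total counts per library ranged from 30794757 to 36341785, so that 3 counts correspond to 0.0825 to 0.0974 CPM of the totals. Of the epithelial markers, KRT17, SFN and DSP were abundant, while KRT5 had 3 to 7 counts and PKP1 0 to 4 counts per library. Over the 9 squamous markers in the table the summed level was 3301 to 3384 CPM in siControl and 2698 to 2776 CPM in the libraries labelled siNAT10. Most of the sum was DSP (2248 CPM in siControl against 1900 CPM) and KRT17 (844 against 565 CPM), while SFN was higher (236 against 265 CPM). Of the 7 tested squamous markers, 4 fell and 1 rose, where 20.7% and 19.7% of all tested rows did. The part of the difference in the summed level in the results was not tested. Summed levels per library were 48.6 to 55.4 CPM for leukocyte markers, 30.7 to 37.7 CPM for fibroblast markers, 2.52 to 3.76 CPM for endothelial markers and 1.89 to 3.52 CPM for liver cell markers. In these lists PTPRC had 0 to 4 counts per library, COL3A1 0 to 4, KDR 0 to 2 and ALB 0 to 2, while CD68 had 1543 to 1774, COL1A1 594 to 1069, PDGFRB 244 to 314, CSF1R 83 to 114, FGB 64 to 96 and CDH5 54 to 81. The endothelial markers VWF and PECAM1, with at most 46 counts, were called in opposite directions (log2 fold changes 3.04 and -2.29).

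The sequence before the start of CFB is shown because CFB differed most among the 8 tested members, beside those of C2, its neighbour on the chromosome, of C1R, which differed in the opposite direction, and of CD55, the most abundant member. Each is the 250 bases before a transcription start in RefSeq (GRCh38.p14), printed 5′ to 3′ on the strand of the gene, with matches to the motifs described next in capitals. RefSeq entries were found for 7 of the 9 genes, all but C3 and C1S.
CFB, plus strand, chr6:31945845-31946094: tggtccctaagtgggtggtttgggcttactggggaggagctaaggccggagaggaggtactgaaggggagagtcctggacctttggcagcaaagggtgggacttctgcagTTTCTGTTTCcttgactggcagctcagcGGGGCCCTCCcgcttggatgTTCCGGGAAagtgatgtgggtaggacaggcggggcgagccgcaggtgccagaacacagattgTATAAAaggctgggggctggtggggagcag
C2, plus strand, chr6:31897533-31897782: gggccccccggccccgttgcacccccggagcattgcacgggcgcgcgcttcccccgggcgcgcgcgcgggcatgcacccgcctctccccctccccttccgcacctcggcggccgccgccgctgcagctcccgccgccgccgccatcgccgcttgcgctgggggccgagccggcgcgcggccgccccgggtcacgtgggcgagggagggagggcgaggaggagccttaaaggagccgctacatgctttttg
C1R, minus strand, chr12:7092446-7092695: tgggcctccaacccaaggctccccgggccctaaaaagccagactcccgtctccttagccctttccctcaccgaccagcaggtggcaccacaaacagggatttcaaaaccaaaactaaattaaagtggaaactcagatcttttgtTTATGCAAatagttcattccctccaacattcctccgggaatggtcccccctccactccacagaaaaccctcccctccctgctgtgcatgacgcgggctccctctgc
CD55, plus strand, chr1:207321428-207321677: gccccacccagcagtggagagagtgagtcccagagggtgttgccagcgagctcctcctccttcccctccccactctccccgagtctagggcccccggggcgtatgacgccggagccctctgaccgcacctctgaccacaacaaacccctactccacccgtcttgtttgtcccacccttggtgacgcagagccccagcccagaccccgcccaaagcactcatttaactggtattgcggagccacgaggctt

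The 250 bases before CFB held matches to 4 of 5 motifs searched on both strands, none of which overlapped another. On the minus strand lay a match to the interferon-stimulated response element, searched as GAAA repeated after any 2 bases, 140 to 131 bases before the start. The interferon-gamma activated site, TTCNNNGAA, matched from 92 to 84 bases before the start, and a match to the NF-kB motif lay between these, from 112 to 103 bases before it. A TATA box, TATAAA, lay 30 to 25 bases before the start. Among all 35116 RefSeq windows of this length, 3.02% held the interferon-stimulated response element, 6.57% the interferon-gamma activated site, 9.96% the NF-kB motif and 10.7% the TATA box. The first 3 occurred together in 8 windows, 0.0228% of all, a combination counted after the CFB matches were seen. No match lay in the windows of C2, CFI, CD46 and CD55, and the C1R window shown held a match to the C/EBP motif, TTGCNNAA, which 9.05% of windows hold. The window of a second C1R start held matches to both the interferon-gamma activated site and the C/EBP motif. Of the 4 CD59 starts, 2 with overlapping windows held the same match to the interferon-gamma activated site. Another CD59 start held matches to the C/EBP motif. These matches describe letters only, and binding was not measured.

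CFB was far less abundant under the siNAT10 label. CFB (chromosome 6, 31945650 to 31952084, plus strand) had 7446 and 7109 counts in siControl replicates 1 and 2, and 744 and 727 counts in siNAT10 replicates 1 and 2. Scaled, these were 196 and 192 CPM against 21.5 and 24.6 CPM. Both siControl libraries were far above both libraries labelled siNAT10, and the gap was many times the distance between libraries of 1 group (SD 2.84 CPM in siControl and 2.21 CPM in siNAT10). The mean was 8.39-fold lower, a log2 fold change of -3.07 ± 0.08 (SE) with a 95% interval from -3.24 to -2.90. Ordered from the lowest log2 fold change, CFB stood at rank 66 of the 20098 rows that passed the filter on low counts.

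C3, the substrate of the convertase that CFB forms, was lower by less. C3 (chromosome 19, 6677704 to 6730562, minus strand) was at 198 and 187 CPM in siControl and at 94.4 and 97.9 CPM in the libraries labelled siNAT10. The groups did not overlap, as was so for 69.5% of all tested rows. The C3 level was 2.00-fold lower, with a 95% interval from -1.14 to -0.86 on the log2 scale. Per kilobase of exon, a scale that allows for exon length, CFB stood above C3 in siControl and below it in siNAT10. The ratio of CFB to C3 on that scale was 1.65 and 1.71 in the siControl libraries and 0.38 and 0.419 in the libraries labelled siNAT10. With CFB measured on the bases it shares with a read-through row described later, a choice made after seeing the data, the ratio was 3.51 and 3.68 against 0.807 and 0.898. C3 was still divided by its whole exon length there, so these ratios compare unlike lengths.

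**Figure D1:**
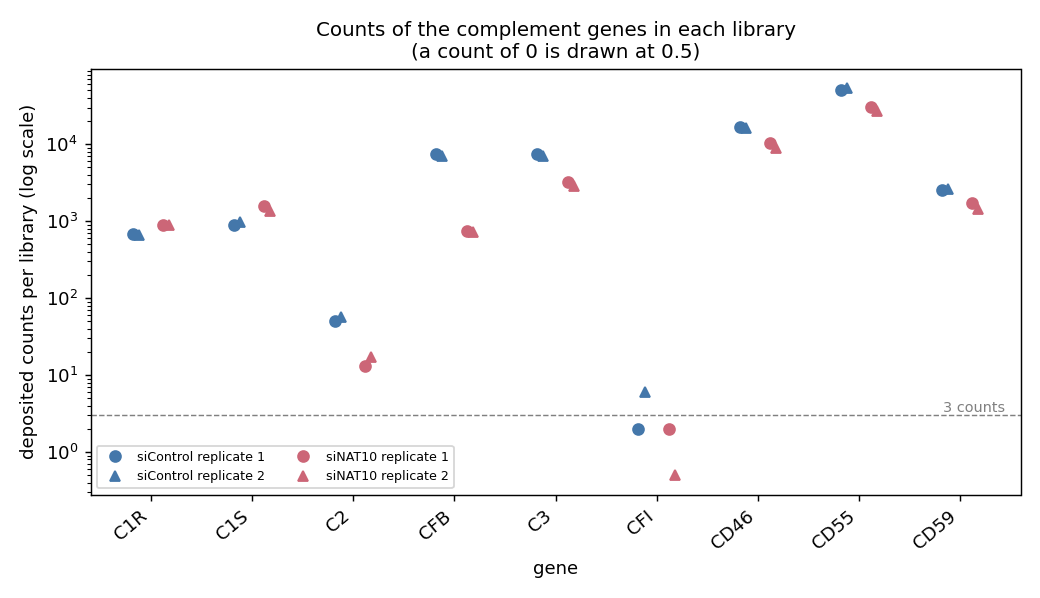
Deposited counts (log scale) of the 9 complement genes, with siControl libraries in blue, libraries labelled siNAT10 in red, replicate 1 as circles and replicate 2 as triangles. CFB stands near C3 in siControl, at 7446 and 7109 counts, and drops to 744 and 727 counts, while C1R and C1S are higher in the red libraries and CFI lies around the line at 3 counts.

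C2, the counterpart of CFB in the classical pathway, was barely expressed. C2 (chromosome 6, 31897785 to 31945672, plus strand) had 51 and 57 counts in siControl and 13 and 17 counts in the libraries labelled siNAT10, that is 1.34 and 1.54 against 0.376 and 0.576 CPM. The groups did not overlap, as for 69.5% of all tested rows. The log2 fold change was -1.60 ± 0.37, with a wide 95% interval from -2.38 to -0.82. The annotated exons of C2 and CFB share only 23 bases, 0.46% of the exon length of CFB, at the far left end of CFB, which in the table begins 445 bases before the RefSeq start used here. C2 counts amounted to 0.685% and 0.802% of CFB counts in siControl and to 1.75% and 2.34% in siNAT10. How many C2 counts come from CFB transcripts was not tested.

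The read-through row XXbac-BPG116M5.17, which joins exons of both genes, followed CFB and not C2. It shares 2249 exon bases with CFB and 1820 with C2. Its counts were 7155 and 6883 in siControl against 712 and 701 under the siNAT10 label, which is 95.7% to 96.8% of the CFB count in each library. Since C2 had so few counts in its own row, the read-through row adds no measurement separate from CFB. Of the rows on the opposite strand, ZBTB12 shares 141 bases with C2 and was lower (4.16 against 1.74 CPM, log2 fold change -1.24 ± 0.21, edgeR adjusted p = 1.08e-04). C2-AS1 shares 159 bases with C2 and was not called (log2 change -0.34 ± 0.26, edgeR adjusted p = 0.32).

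The proteases C1R and C1S were the only members with higher levels in the libraries labelled siNAT10. C1R (chromosome 12, 7080209 to 7092607, minus strand) was at 17.8 and 18.0 CPM in siControl and at 25.9 and 30.2 CPM in siNAT10. The difference was 0.65 ± 0.10 on the log2 scale, with a 95% interval from 0.44 to 0.85. C1S (chromosome 12, 6988259 to 7071032, plus strand) was at 23.6 and 26.4 CPM in siControl and at 46.0 and 45.5 CPM in siNAT10, 1.83-fold higher, or 0.87 ± 0.08 on the log2 scale. For both genes each library labelled siNAT10 was above each siControl library, where the groups did not overlap for 69.5% of all tested rows. The 2 proteases act as 1 complex, and their ratio per exon length, C1S over C1R, ranged from 1.17 to 1.56 over the 4 libraries. C1R shares 672 exon bases with C1RL, a related protease gene, which was not called (18.7 against 17.2 CPM, log2 fold change -0.13 ± 0.11, edgeR adjusted p = 0.377). C1S shares 229 bases with RP3-461F17.3, which was not called either (38.1 against 41.1 CPM, edgeR adjusted p = 0.327).

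The 3 membrane regulators were all lower, by similar amounts. CD55 (chromosome 1, 207321508 to 207386804, plus strand), the decay-accelerating factor, was at 1346 and 1455 CPM in siControl against 883 and 919.6 CPM under the siNAT10 label. The difference was -0.64 ± 0.06 on the log2 scale, with a 95% interval from -0.77 to -0.50. CD46 (chromosome 1, 207752057 to 207795513, plus strand), the membrane cofactor protein, was at 436 and 438 CPM in siControl and at 300.02 and 299 CPM in siNAT10, a difference of -0.54 ± 0.06 on the log2 scale. The SD between CD46 values of 1 group was 1.44 CPM in siControl and 0.93 CPM in siNAT10. CD59 (chromosome 11, 33698261 to 33736445, minus strand), the inhibitor of the membrane pore, was at 66.8 and 69.6 CPM in siControl and at 50.2 and 49.3 CPM in siNAT10, a difference of -0.46 ± 0.07 on the log2 scale. The groups did not overlap for any of the 3, as for 69.5% of all tested rows. The 95% intervals of the 3 genes overlapped one another. CD55 shares 484 exon bases with RP11-357P18.2 (8 to 13 counts per library) and CD59 shares 254 with C11orf91 (10 to 19 counts), against 27140 or more counts per library for CD55 and 1454 or more for CD59.

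CFI, the soluble protease that inactivates C3 and C4 fragments, was at the limit of detection. CFI (chromosome 4, 109740694 to 109802179, minus strand) had 2 and 6 counts in siControl and 2 and 0 counts in the libraries labelled siNAT10. It did not pass the filter on low counts, and no difference could be seen at this depth.

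Of the 9 members, 8 passed the filter, and all 8 were past an edgeR adjusted p of 0.05, with 6 lower and 2 higher. Among all tested rows 40.4% were past it, with 20.7% lower and 19.7% higher. The groups did not overlap for the same 8 members, against 69.5% of all tested rows. CFB, C2 and C3 were also at least 2-fold lower, as were 5.62% of all tested rows. The median log2 fold change of the 8 members was -0.59, against -0.0079 over all rows tested. Because the members were chosen with this contrast in view, nothing is read from these counts or from this median. In bulk RNA, fewer cells with a transcript and less of it per cell cannot be told apart.

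**Figure D2:**
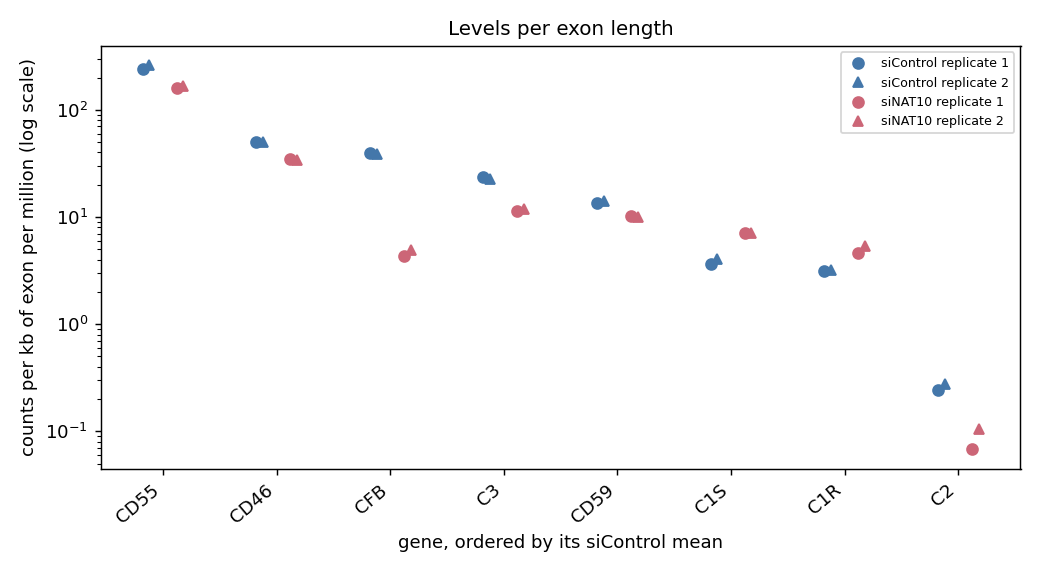
CPM per kilobase of exon (log scale) for the 8 members that passed the filter, ordered by siControl mean, with groups and replicates marked as in the plot of counts. CD55 leads in all 4 libraries, and CFB, over its whole exon length, moves from the third place in siControl to the level of C1R in the libraries labelled siNAT10.

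Per exon length, the surface regulators CD55 and CD46 were the most abundant members, while CD59 was below C3. In siControl the order was CD55 (251 ± 13.8 CPM per kilobase, SD, n = 2), CD46 (50.1 ± 0.17), CFB (38.7 ± 0.57), C3 (23.1 ± 0.95), CD59 (13.8 ± 0.41), C1S (3.87 ± 0.31), C1R (3.15 ± 0.021) and C2 (0.26 ± 0.025). No 2 neighbours in that order overlapped between libraries. In the libraries labelled siNAT10 the order was CD55 (162 ± 4.64), CD46 (34.4 ± 0.11), C3 (11.5 ± 0.3), CD59 (10.1 ± 0.13), C1S (7.08 ± 0.058), C1R (4.94 ± 0.53), CFB (4.62 ± 0.44) and C2 (0.086 ± 0.026). C1R and CFB, neighbours there, overlapped between libraries (4.57 and 5.32 against 4.30 and 4.93). CD55 exceeded CFB 6.18-fold and 6.82-fold on this scale in siControl, and 36.9-fold and 33.5-fold in siNAT10. The place of CFB depends on the length it is divided by. Most of its counts are also in the read-through row, which shares 2249 of the 4997 exon bases of CFB. The counts of that row over those 2249 bases gave CFB 83.5 and 82.5 CPM per kilobase in siControl and 9.15 and 10.6 in siNAT10. The other members were still divided by their whole exon length, so the lengths are unlike and CFB may be placed too high. With those unlike lengths CFB stood above CD46 in siControl, and in siNAT10 it overlapped CD59 and stood above C1S. CD55, over its whole exon length, exceeded CFB on those bases 2.89-fold and 3.17-fold in siControl and 17.3-fold and 15.6-fold in siNAT10. Counts of CD55 made up 58.9% to 62.7% of all counts of the 9 members in each library.

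Of the rest of the complement system, few genes were abundant in these cells. Of 51 other complement genes listed from general knowledge, 36 had a row and 17 passed the filter, of which 6 fell, 3 rose and 8 were not called, against 20.7% lower and 19.7% higher over all tested rows. Their median log2 fold change was -0.34. The list was drawn up with earlier results of these data known, so its counts are a description. C5, which starts the pore, was at 4.26 and 3.28 CPM in the 2 groups. The receptor genes CR1, CR2 and C3AR1 had at most 17 counts in any library. These 4 genes, and CFD, ITGB2 and C5AR2 among the calls, were named after their values were seen.

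Among the genes that feed the C3 convertases, C4B and CFD fell. C4B, 1 of the 2 nearly identical genes for C4, was lower (24.9 against 16.2 CPM in the 2 groups; log2 change -0.62 ± 0.10, edgeR adjusted p = 4.17e-05). Its copy C4A was at 12.9 and 10.6 CPM (-0.28 ± 0.11, edgeR adjusted p = 0.0537), and was called with libraries scaled by their totals alone (edgeR adjusted p = 9.37e-03) and with halved counts (0.0493). Reads can be shared between the copies, so the 2 rows are uncertain singly. CFD, the protease that activates factor B, fell from 6.61 to 4.28 CPM (-0.62 ± 0.16, edgeR adjusted p = 3.63e-03).

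Soluble regulators went both ways, with 2 lower, 1 higher and 2 not called among 5 tested. Over all tested rows 20.7% were lower and 19.7% higher. C4BPA, the alpha chain of the C4b-binding protein, fell from 6.62 to 2.24 CPM (log2 change -1.57 ± 0.19, edgeR adjusted p = 2.66e-06). The beta chain gene C4BPB was far more abundant and fell by less, from 135 to 106 CPM (-0.35 ± 0.07, edgeR adjusted p = 2.49e-04). CLU, the chaperone clusterin that also binds the terminal complex, rose from 762 to 924 CPM (0.28 ± 0.06, edgeR adjusted p = 1.53e-03). With libraries scaled by their totals alone the CLU change was 0.17 (edgeR adjusted p = 0.0441). The CLU call was lost without siNAT10 replicate 2, where the log2 change was 0.24. C9, the pore-forming component and not a regulator, rose from 6.06 to 9.21 CPM (0.60 ± 0.14, edgeR adjusted p = 1.88e-03). The rows of C4A, C4B, C9, C1QBP and ITGB2 share exons with other rows.

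Of the 3 receptor genes tested, 2 fell and 1 rose, where 20.7% and 19.7% of all tested rows did, and both lower calls were lost under some alternatives. C1QBP, named for binding the C1q globular heads but mainly a mitochondrial protein, rose from 96.7 to 145 CPM (log2 change 0.58 ± 0.07, edgeR adjusted p = 3.0e-06). ITGB2, the beta chain of the leukocyte receptors for C3 fragments, was at 2.45 and 1.53 CPM (-0.68 ± 0.24, edgeR adjusted p = 0.0325). That call was lost with DESeq2 (adjusted p = 0.219) and without any one of the 4 libraries (adjusted p from 0.0782 to 0.115). C5AR2, a receptor for C5a, was at 1.07 and 0.473 CPM (-1.18 ± 0.42, edgeR adjusted p = 0.0296), and its call was lost with DESeq2 (0.191), without siControl replicate 2 (0.277) and without siNAT10 replicate 1 (0.126).

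**Figure D3:**
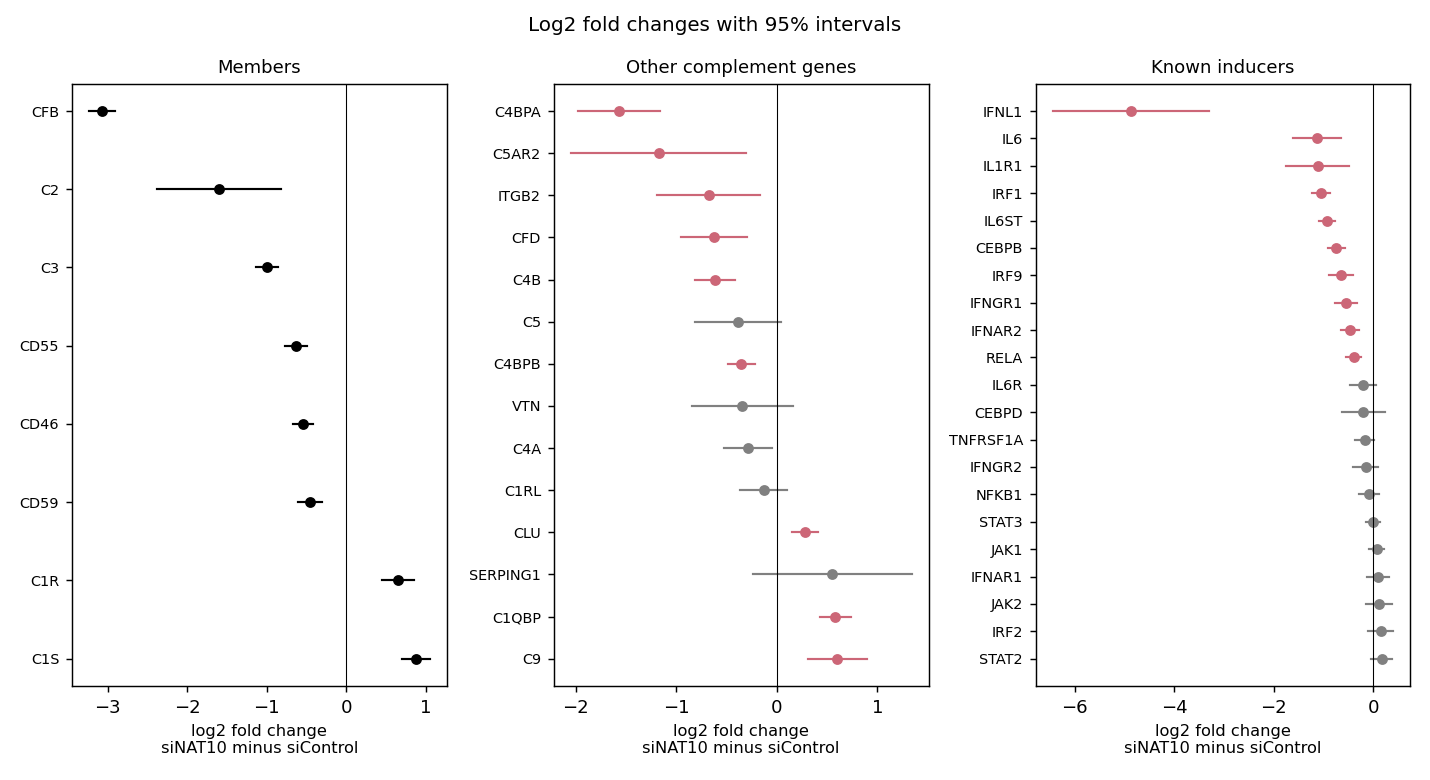
Log2 fold changes (libraries labelled siNAT10 minus siControl) with 95% intervals for the 8 members that passed the filter, and for tested genes of the other 2 lists that reach 1 CPM in a group, less 1 gene that is not drawn. Members are black and their calls are not marked. In the other panels red marks genes past the adjusted threshold and grey those that are not, with all 10 red inducers to the left of 0.

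Known inducers of complement transcription were described from a list of 28 cytokines, receptors and transcription factors. That list was drawn up with earlier results of these data known, so its counts are a description. Of 24 that passed the filter, 10 fell and none rose, where 20.7% and 19.7% of all tested rows did. At an unadjusted p under 0.05, 2 were higher, among them NR1H4 (named after its values were seen), and DESeq2 called 0 higher. The median log2 fold change of the list was -0.21. IRF1, an interferon-induced transcription factor, fell from 37.0 to 17.8 CPM (log2 change -1.05 ± 0.09, edgeR adjusted p = 1.53e-08), and IL6ST, the shared receptor chain for the interleukin 6 family, from 79.7 to 41.7 CPM (-0.93 ± 0.07, edgeR adjusted p = 8.43e-09). CEBPB, a factor of the acute phase response, fell from 49.3 to 29.4 CPM (-0.75 ± 0.08, edgeR adjusted p = 5.75e-07), and IRF9, a factor that binds interferon response elements, from 15.2 to 9.63 CPM (-0.66 ± 0.12, edgeR adjusted p = 1.34e-04). RELA, an NF-kB subunit, fell from 145 to 109.6 CPM (-0.40 ± 0.07, edgeR adjusted p = 1.49e-04).

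IFNL1, a type III interferon gene, fell from 42 and 34 counts to 2 and 0 counts (edgeR adjusted p = 2.52e-05). The remaining calls, named after their values were seen, were IFNAR2, IFNGR1, IL6 and IL1R1, with log2 fold changes of -0.47, -0.55, -1.13 and -1.12. Among the called inducers, the rows of IRF1, IRF9, IL6ST, CEBPB, IFNAR2, IL6 and IL1R1 share exons with other rows. The IL1R1 call was lost with DESeq2 (adjusted p = 0.0658) and without siControl replicate 1 (0.0889). Of the factors that carry cytokine signals to the nucleus, STAT2 and STAT3 were not called. STAT2 was at 14.1 and 15.8 CPM (log2 change 0.17 ± 0.10, edgeR adjusted p = 0.221) and STAT3 at 84.4 CPM in both groups (adjusted p = 0.998). NFKB1, JAK1, JAK2, IRF2, IFNAR1, IFNGR2, IL6R and TNFRSF1A were not called either, with log2 fold changes between -0.22 and 0.15.

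The tested rows next to CFB on the chromosome had smaller differences. NELFE, which encodes a subunit of a complex that pauses transcription and lies 0.003 kb from CFB, was at 96.2 and 88.8 CPM (log2 change -0.12 ± 0.07, edgeR adjusted p = 0.232). SKIV2L, an RNA helicase gene 6.996 kb away, was higher (0.31 ± 0.09, edgeR adjusted p = 6.7e-03), as was EHMT2, a histone methyltransferase gene that lies 0.098 kb from C2 (0.36 ± 0.07, edgeR adjusted p = 2.73e-04). These 3 were named for their position after their values were seen. Of 20 tested rows within 100 kb of CFB or C2, leaving out rows that share exons with them, 3 fell and 5 rose, calls for 40% against 40.4% of all tested rows, and none had a log2 fold change as low as that of CFB. The smallest adjusted p nearest CFB was that of C4B, given earlier, and nearest C2 that of the heat shock gene HSPA1A (504.8 against 1134 CPM, log2 fold change 1.17 ± 0.06, edgeR adjusted p = 3.12e-11), which is nearly identical to HSPA1B.

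Around C1R and C1S the calls went both ways. Of 7 tested rows nearest C1R, 5 fell and none rose, where 20.7% and 19.7% of all tested rows did. C1R itself was higher. Some of the 5 rows overlap one another on the chromosome, so they are not 5 separate loci. They included C1RL-AS1, an antisense RNA 15.4 kb away (54.9 against 33.7 CPM, log2 fold change -0.70 ± 0.08, edgeR adjusted p = 8.21e-07). Of 13 nearest C1S, 3 rose, as C1S was higher: PHB2, SCARNA12 and PTPN6, with log2 fold changes of 0.22, 0.74 and 0.67, named after their values were seen. SCARNA12 lies within the span of PHB2, so SCARNA12 and PHB2 are not separate loci. The 1 of the 13 that fell was the enolase gene ENO2 (33.4 against 20.3 CPM, -0.72 ± 0.09, edgeR adjusted p = 2.06e-06). Near C3, GPR108, a membrane protein gene, fell from 15.9 to 10.3 CPM (-0.62 ± 0.11, edgeR adjusted p = 2.0e-04), and near CFI the phospholipase gene PLA2G12A fell from 39.0 to 26.8 CPM (-0.54 ± 0.09, edgeR adjusted p = 9.18e-05). None of the 5 tested rows nearest CD55, CD46 and CD59 was called by edgeR. Over all 58 tested rows within 100 kb of a member, 12 fell and 9 rose, with a median log2 fold change of -0.12 and calls for 36.2% against 40.4% of all tested rows.

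**Figure D4:**
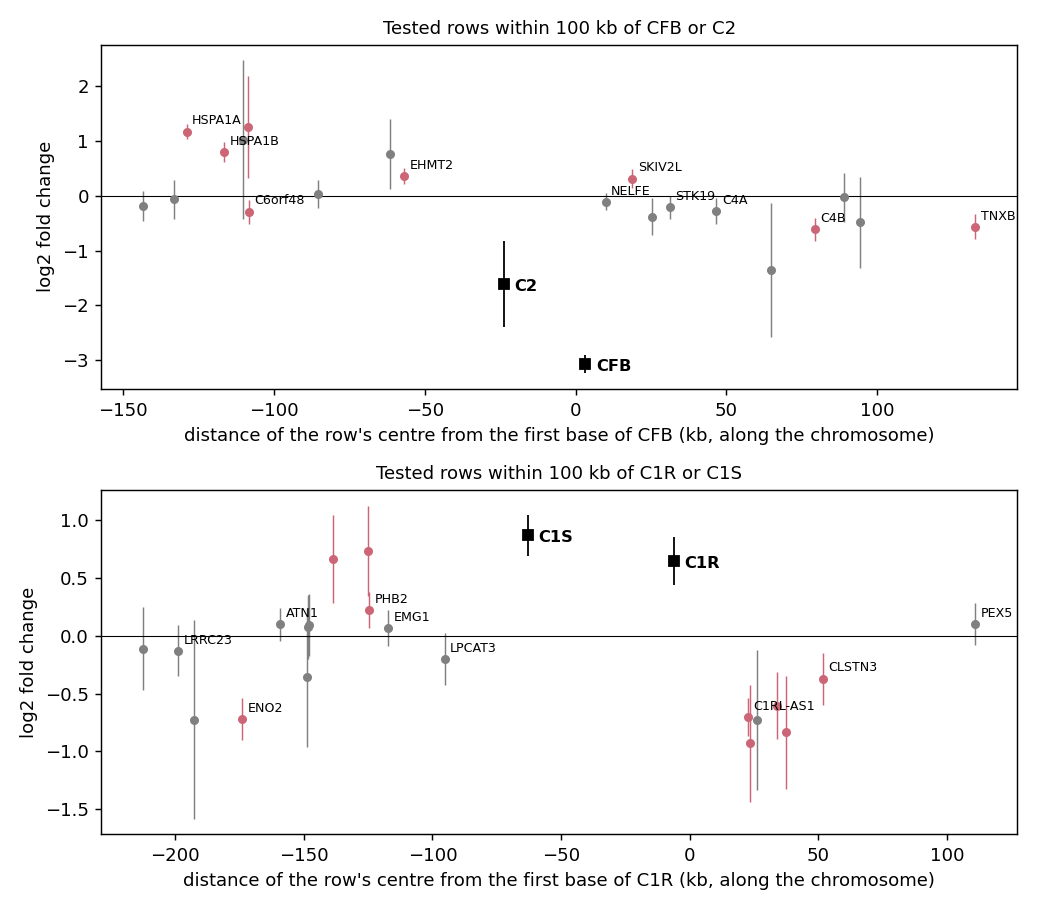
Log2 fold change with 95% interval against distance in kb for tested rows within 100 kb of CFB or C2 (top) and of C1R or C1S (bottom). Members are black squares, rows past the adjusted threshold red and others grey, with names for rows whose group means sum to 20 CPM or more. CFB at -3.07 stands apart from all its neighbours, and C1R and C1S lie above the red rows to their right.

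Among the 5 rows with the profile most like that of CFB over the 4 libraries were SPOCK1, INHBE, QPRT and FLJ16779. Likeness was the Euclidean distance between log2 values (CPM plus 0.5), each centred on its own mean, over rows of at least 10 CPM. The distances of these 4 were 0.319, 0.366, 0.418 and 0.486. SPOCK1, a proteoglycan gene, was at 53.3 and 53.8 CPM in siControl against 7.51 and 7.42 CPM under the siNAT10 label, and INHBE, an activin subunit gene, at 30.3 and 29.4 against 3.73 and 2.88 CPM. With 4 libraries in 2 groups, a like profile is little more than a like fold change.

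**Figure D5:**
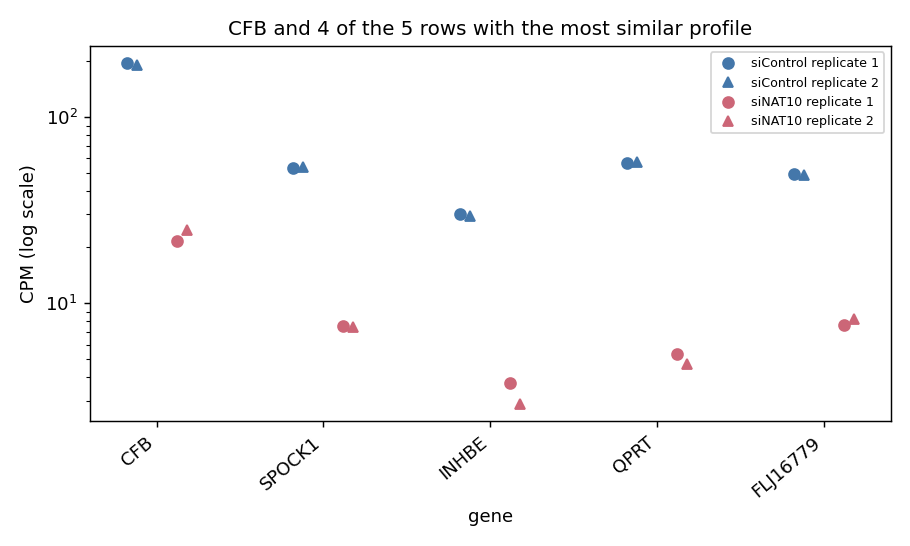
CPM (log scale) of CFB and of 4 of the 5 rows with the most similar profile, with groups and replicates marked as in the plot of counts. All the rows shown are lower in both red libraries, CFB by 8.39-fold and FLJ16779, the least similar of them, by 6.22-fold.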

How the data were processed

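Counts per gene of 4 RNA sequencing libraries were used, 2 per group, grouped by the sample titles. The deposited values are raw counts in 1 table with exon coordinates. The tools named in the submitters' processing notes are fastp 0.23.4, STAR 2.5.3a and featureCounts, with the build GRCh38. Per the labels' protocols, total RNA from TRIzol entered a digital mRNA library kit. Not given in the sources used here: annotation, strand setting, and how overlapping genes and molecular identifiers were treated. Between 72% and 73.5% of counts from 1 to 50 were even, as separate counting of both mates would give.

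The main test was edgeR's quasi-likelihood test (edgeR 4.0.16 in R 4.3.3, filterByExpr, TMM scaling, robust shrinkage, group only), two-sided, with Benjamini-Hochberg adjustment over 20098 rows at 0.05. CPM use TMM-scaled library sizes of the tested rows, and levels per length use the exon length in the table. Intervals cover these libraries only. The script was tested on simulated data. The alternatives were DESeq2 1.42.0, other scalings and filters, each library left out, a replicate block, halved counts, and only rows that share no exon. Exon overlaps were computed without regard to strand. Rows pooling several loci (126) were left out of the neighbours.

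The members and lists were chosen with earlier results of these data known. Named were all members, NAT10, rows sharing exons with members, called list genes (up to 6 per list), uncalled ones of at least 5 CPM, the most strongly called neighbour per locus and the 5 rows most like CFB. Other named genes are said to be chosen later. Motifs were searched in RefSeq windows. Some genes are not reported here.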

Additional observations from a re-analysis of the deposited data

How the results depend on the processing

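With each library left out in turn, the CFB log2 fold change ranged from -3.17 to -2.97, and it was -3.18 with libraries scaled by their totals alone, which moved the median of all tested rows to -0.12 and the calls over all rows to 2688 higher and 5604 lower (main 3951 and 4169). DESeq2 called 5611 rows, 2771 of them lower. With only rows that share no exon, 3934 of 9865 rows were called, 7 of 25 near members and 3 of 14 inducers, fewer rows being tested, and CFB, C2, C1R, C1S, CD55 and CD59 gave no value there. Over the alternatives that tested them, the 8 members kept their direction, with C2 between -1.92 and -1.31, C1R between 0.53 and 0.76 and C1S between 0.76 and 0.95. The count of other complement genes called ranged from 6 to 11 (main 9). Higher calls among them were 5 without siControl replicate 1 (main 3) and 1 with only rows that share no exon. The list's median log2 fold change was -0.041 with no filter on low counts. The shared replicate numbers do not pair the libraries by any label, and replicate differences correlated at -0.026 between groups across genes. The fit with a replicate block called 8254 rows, 10 of the other complement genes, 24 near members and 10 inducers, with CFB at -3.07 and NAT10 at 0.09, and C4A gained a call (adjusted p = 0.0487). Counted over the bases it shares with the read-through row, an alternative chosen after seeing the data, the mean CFB level was 83.0 CPM per kilobase in siControl and 9.85 in siNAT10 (main 38.7 and 4.62). At this depth CFI had at most 6 counts and C2 at most 57 per library.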
